A study of Mus musculus with 9 samples.

Results

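Triploid clones of p53-deficient mouse embryonic cells were compared with diploid clones of the same genotype, 3 clones against 3, on one-colour microarrays with 1 array per clone. These 6 samples were taken from the 9 of the series by the ploidy in their titles; the other 3 were tetraploid clones. All groups share the p53-/- genotype per the genotype field, and all were grown untreated in Eagle's minimum essential medium with fetal bovine serum. The diploid clones 1 to 3 carry the sample names RRI2, RRI15 and RRI2-1, and the triploid clones 1 to 3 carry RRI2-5, RRI2-12 and RRI2-15. The free-text descriptions of 8 of the 9 clones give a number from 54 to 59 where the first gives 53, against the genotype field. The labels do not say whether the clones came from separate embryos or cultures, so p-values measure only the spread between these samples. Cells of a clone also carry whatever else distinguishes that clone, so with 3 clones a group, ploidy and the history of each clone cannot be told apart.

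Triploid cells carry an additional haploid set of chromosomes, and loss of p53 removes a checkpoint that normally stops the division of cells with abnormal chromosome numbers. HOX genes encode transcription factors that record position along the body and limb axes; they lie in clusters, and genes at the posterior end of a cluster pattern the most distal structures. Mesenchymal cells keep such positional patterns in culture. Acute-phase genes encode secreted proteins of inflammation and tissue injury, and the C/EBP family of transcription factors is known for binding at many of their promoters. Arrays report RNA per unit of total RNA, so they cannot show a change in the total RNA of a cell.

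Levels are given as log2 signal, where 0 is the 75th percentile of signal on the array and 1 unit is a factor of 2. A probe was kept if each of the 3 diploid arrays, or each of the 3 triploid arrays, flagged it as well above background. This left 25090 probes and 21477 features, 12293 of them named genes. Differences are triploid minus diploid on the log2 scale, with the standard error (SE) of the model, and a feature was called at an adjusted p below 0.05. Between 47.5% and 50.8% of spots on these 6 arrays lay well above background, and 0 were saturated. Diploid clone 1 was alone on its slide and the other 8 arrays shared another, so a fit with the slide as a block is the fit without diploid clone 1. Across features, which are not independent replicates, triploid clones 2 and 3 correlated at 0.985, while triploid clone 1 correlated with them at 0.949 and 0.956.

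The labels name the cells only as embryonic. Of 12 markers of fibroblasts and mesenchyme, 11 were well above background on all 3 diploid arrays and 10 on all 3 triploid arrays. Lists of markers of other cell types were dark in part. Of 6 pluripotency markers, Pou5f1, Zfp42 and Dppa3 were not well above background on any of the 6 arrays, while Nanog and Utf1 were on all. Of 5 blood markers Ptprc was dark on all 6 arrays and Csf1r, Itgam and Cd3e bright on all, and of 6 epithelial markers Cdh1 and Epcam were dark and Krt19 was bright on all. Of 6 trophoblast markers 4 were dark (Cdx2, Elf5, Hand1, Tfap2c) and Gcm1 and Prl3d1 bright on all 6 arrays; of 5 endothelial markers Emcn and Tek were dark and Kdr and Pecam1 bright; of 6 nerve cell markers Neurod1 and Pax6 were dark and Nes, Tubb3 and Map2 bright. All 5 skeletal muscle markers were dark. The log2 of the summed signal of the epithelial list ran from 3.49 to 4.82 in the diploid clones and from -0.78 to 0.62 in the triploid clones, and that of the trophoblast list from 4.48 to 4.94 and from 3.08 to 4.07. Such a sum mostly follows its brightest gene and does not measure the whole list. In the epithelial list that gene was Krt19, with 4.69, 3.26 and 4.80 in the diploid clones and -1.24, 0.23 and -1.57 in the triploid clones. In the trophoblast list it was Gcm1, with 4.41, 4.64 and 4.85 against 4.00, 2.99 and 3.22. The part of other cell types in the differences between the groups was not tested. The probe of Trp53, the gene of p53, was well above background on 1 of them, a diploid one, at log2 signals from -6.11 to -3.35 over the 6 arrays. The sources used here do not say whether the deletion covers the probe, so the genotype was not checked by it.

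In all, 434 features were called between the groups, 2.02% of those tested. Of these, 136 rose (0.633%) and 298 fell (1.39%) in the triploid clones, and 87 and 197 were named genes. The drops were also the larger changes: of the 152 features past 8-fold, 117 fell. Signal was not well above background on any triploid array for 88 of the features that fell, and on any diploid array for 21 of those that rose. Fold changes of such genes are lower bounds, computed from the brighter group's mean over each dark array's dimmest detected probe, or over the gene's own signal there if that is higher, and are given as "at least". Features of this kind were kept through the brighter group alone and could only differ that way. Their share of the list counts that follow is thus no test of direction. The 3 values of each group did not overlap at 5979 features, 27.8% of those tested, which is the background for the counts of non-overlap that follow: 16.3% were higher and 11.5% lower in all triploid clones. All 434 called features were among the 5979, so a lack of overlap adds nothing to a call. An unadjusted limma p below 0.05 was reached by 4458 of the 21477 features, which is the background for the counts at that p in the gene lists below. The median difference over all features was 0.068.

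**Figure D1:**
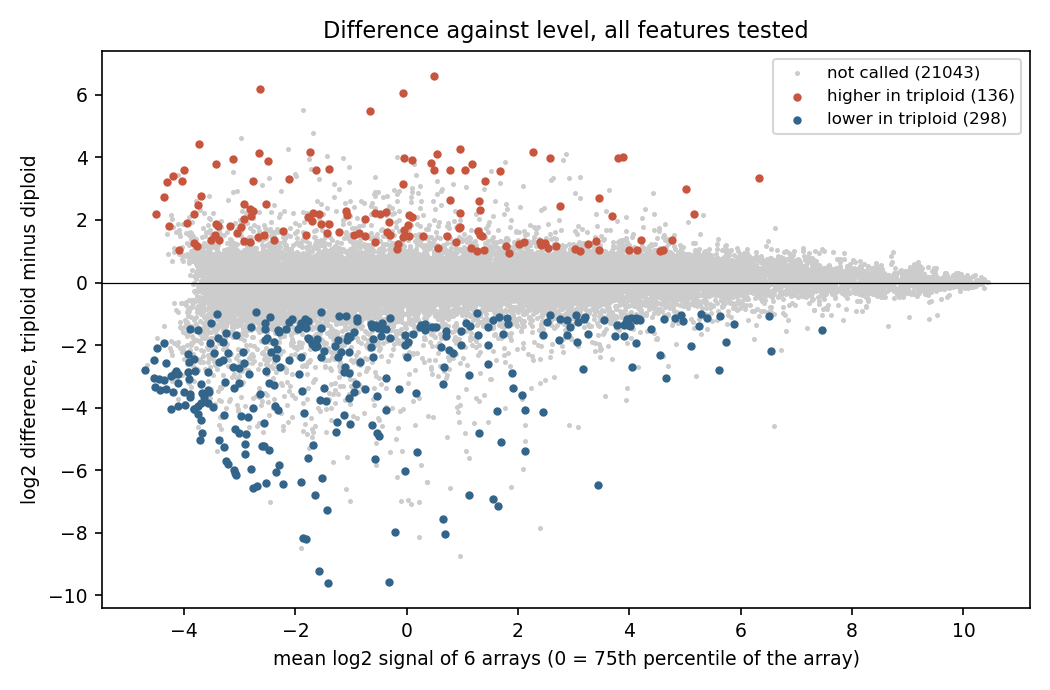
Log2 difference between triploid and diploid means (vertical axis) against the mean log2 signal of the 6 arrays (horizontal axis), 1 point per feature; the 136 features called higher and 298 called lower are coloured and the rest are grey. The called drops reach -9.59 and the called rises 6.60.

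Leaving out triploid clone 1 raised the count from 434 to 1411, while leaving out triploid clone 2 or 3 lowered it to 66 or 90. Without diploid clone 1, 2 or 3 the counts were 88, 147 and 88, and the fit of the 6 arrays without the tetraploid clones called 209 features (0.973%). Of the 434, 53 were called in each of the 6 fits that left out a diploid or triploid clone, 44 of them lower and 38 of them named. The genes and probes described here include 93 called ones chosen by size, adjusted p or membership of a gene list. Of these, 32 (28 of them named genes) were called in all 9 fits that left out 1 clone, and 0 of these lost the call under any other alternative in which the probe was kept. For the others, the clones whose omission ended the call are given with the adjusted p of those fits.

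The fit of the 6 arrays ended 40 of these 93 calls (adjusted p from 0.0501 to 0.0823). Among the rises they included Slpi, Cp, Cebpb, Isyna1, Cxadr, Cxcl12, Cxcl1, Tapbp, H2-M3, Irf1, Lifr, Cdca5, Tfdp2, Ddb2 and Bcl2l11. Among the drops they included Rspo2, Aqp1, Hoxa13, Tbx15, Cnn1, Fabp4, Col10a1, Ccn5, Ccn3, Thbs1, Inhba, Pdgfd, E2f6 and Psmd8.

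Genes at the posterior ends of the Hoxa and Hoxd clusters fell in the triploid clones. Of 9 measured posterior HOX genes, 7 fell and 0 rose, against 1.39% of all features, and the median difference over the 9 was -5.22, or -3.96 with dark genes at their bounds. All of the 7 but Hoxa9 were dark in every triploid clone, so they were kept through the diploid arrays alone and could only fall. Their count is thus no test of direction. Of 15 posterior genes on the array, Hoxb9, Hoxb13, Hoxc9, Hoxc10, Hoxc11 and Hoxc13 were not kept. Of 8 measured anterior HOX genes 0 were called by limma (2 at an unadjusted p below 0.05), with a median of 1.14, and of 4 central HOX genes Hoxa7 alone fell. The 7 posterior genes lie in the Hoxa cluster on chromosome 6 and the Hoxd cluster on chromosome 2.

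Hoxa11, which patterns the forearm and the uterus, had log2 signals of 2.77, 1.28 and 2.62 in diploid clones 1 to 3. In triploid clones 1 to 3 the values were -5.80, -6.09 and -5.98, none of them well above background. All diploid clones were thus bright and all triploid clones dark, at least 75-fold lower (difference -8.18 ± 0.40 SE, adjusted p = 3.35e-05). Hoxa11os, the antisense transcript from the same locus, went from 4.76, 3.37 and 6.02 to -3.05, -3.27 and -3.70 (-8.05 ± 0.55, adjusted p = 0.000459), with signal above background left in 2 of the triploid clones. Hoxa13, the most distal gene of the cluster, had values of 0.55, -2.02 and -1.09 in the diploid clones and was dark in the triploid ones, at least 8.90-fold lower (adjusted p = 0.0266). Hoxa9 fell less, from -1.12, -1.69 and -0.97 to -3.45, -3.19 and -3.52, and stayed above background on all 6 arrays (-2.12 ± 0.27, adjusted p = 0.00938).

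In the Hoxd cluster the genes at the posterior end were dark in all triploid clones. Hoxd13, which patterns digits and genitalia, had values of 3.92, 0.78 and 4.44 in the diploid clones and -6.01, -6.38 and -6.18 in the triploid clones. Diploid clone 2 was the lowest of the diploid clones, and no triploid clone came near it. The gene was at least 132-fold lower (-9.23 ± 0.78, adjusted p = 0.00135). Its neighbours Hoxd12, Hoxd11 and Hoxd10, which act with it in limb patterning, were at least 15.6-fold, 16.1-fold and 18.4-fold lower, again with diploid clone 2 lowest of the diploid clones at -2.30, -1.71 and -1.26. Further along the cluster, Hoxd9 had -2.60, -3.41 and -1.40 against -5.93, -6.29 and -1.35, so triploid clone 3 overlapped the diploid range (adjusted p = 0.364). Hoxd8 had a difference of 0.77 ± 0.44 and Hoxd4 of 2.59 ± 0.75, neither called (adjusted p = 0.355 and 0.106).

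Toward the anterior end of the Hoxa cluster 1 further gene was called. Hoxa7 fell from 1.98, 2.11 and 0.91 to -1.76, -3.70 and -1.76 (-4.07 ± 0.66, adjusted p = 0.0249). Hoxa6, Hoxa4 and Hoxa3 had differences of -0.37, 1.10 and 1.18, none called. Triploid clone 2 stood below the other triploid clones at Hoxa5 (-5.53 against -0.88 and -2.42) and at Hoxb3 (-6.08 against -2.87 and -3.69). Hoxc12, with a difference of -0.07, was the only posterior Hoxc gene measured. The 6 genes Hoxa9, Hoxa11, Hoxd10, Hoxd11, Hoxd12 and Hoxd13 were called whichever clone was left out. Hoxa13 lost its call without diploid clone 1 or 3, triploid clone 2 or 3 or tetraploid clone 1 (adjusted p from 0.0504 to 0.0937), and Hoxa7 without any diploid clone or triploid clone 2 or 3 (from 0.0552 to 0.08).

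Other regulators of limb and body wall patterning changed in part. Of 23 measured transcription factors on that list, 3 fell and 0 rose, with a median of -0.10, against 1.39% of all features called lower. Meox2, a homeobox factor of limb muscle and vessels, had 0.18, 0.80 and -2.13 in the diploid clones and was dark in the triploid clones, at least 12.3-fold lower (adjusted p = 0.00658, called whichever clone was left out). Meox2 was thus kept through the diploid arrays alone and could only fall. Msx2 fell by 2.71 ± 0.54 and Tbx15 fell by 2.59 ± 0.44 (adjusted p = 0.0446 and 0.0276); both calls were lost without any 1 diploid clone or triploid clone 2, that of Msx2 also without triploid clone 3 or tetraploid clone 3, and that of Tbx15 without tetraploid clone 1 (adjusted p from 0.0504 to 0.152). Cyp26b1, the enzyme that degrades retinoic acid in the distal limb bud, fell from 2.83, 2.45 and 3.42 to -2.99, -3.33 and -1.26 (-5.43 ± 0.54, adjusted p = 0.0035, called whichever clone was left out). Prrx1, a limb mesenchyme factor, had 4.46, 4.07 and 4.28 against 3.71, 2.25 and 1.84, a difference of -1.67 that was not called (adjusted p = 0.107).

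**Figure D2:**
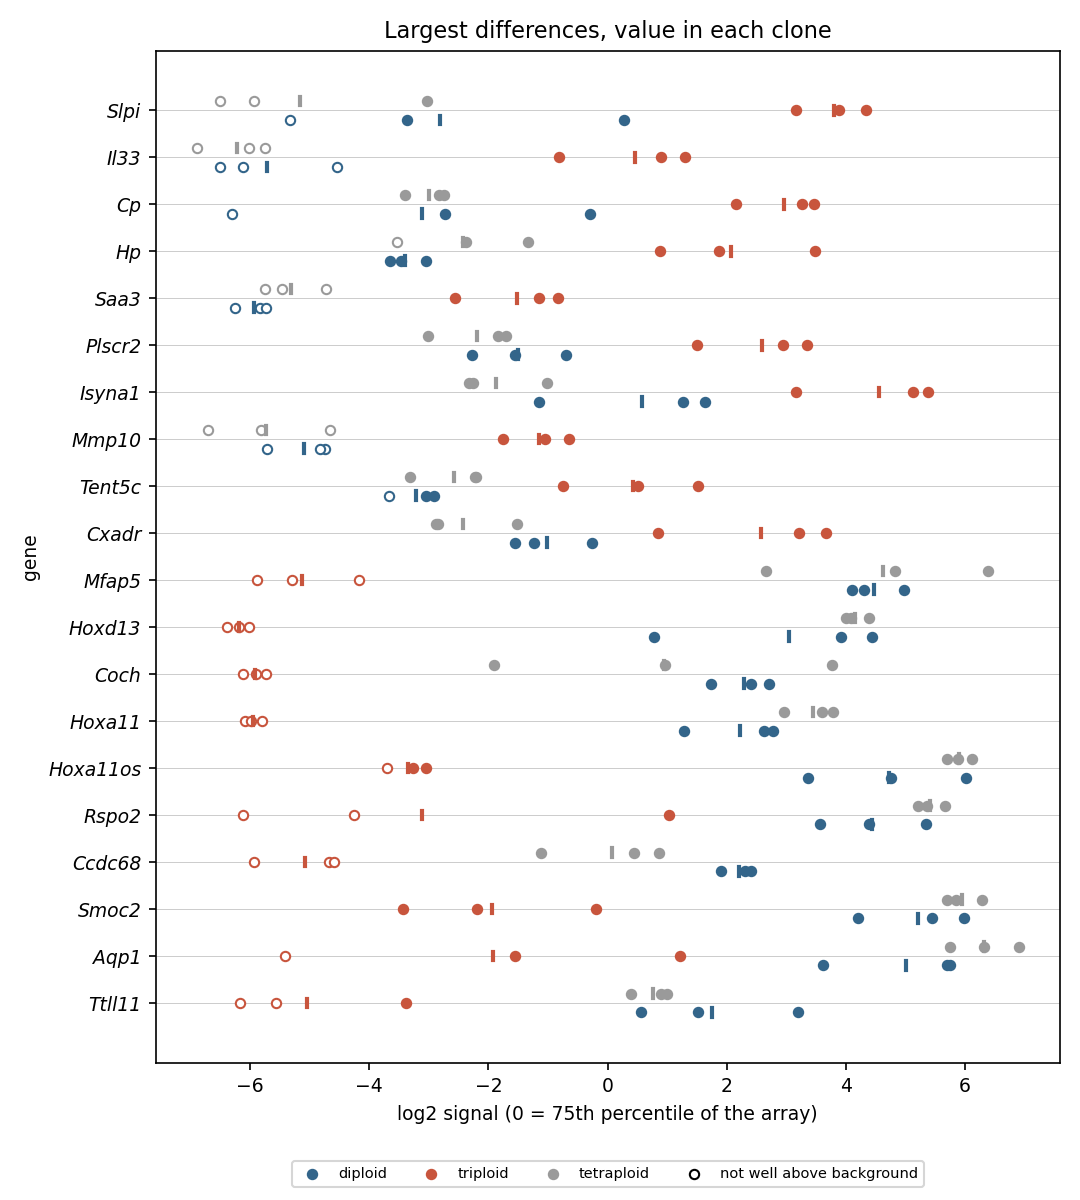
Log2 signal of each clone (horizontal axis, 0 is the 75th percentile of the array) for 10 named genes among the 15 largest called rises and 10 among the 15 largest called drops; diploid, triploid and tetraploid clones are coloured, vertical ticks are group means of 3 clones, and open circles were not well above background. The 20 genes were chosen among those whose diploid and triploid values do not overlap. For Mfap5, Hoxd13, Coch, Hoxa11 and Ccdc68 all 3 triploid clones are open circles.

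Several non-collagen genes of the extracellular matrix fell in the triploid clones. Of 21 measured small leucine-rich proteoglycans and matricellular proteins, 6 fell and 0 rose, with a median of -2.15 (-1.91 with bounds), and of 18 elastic fibre genes 2 fell, with a median of -0.73. Over all features 1.39% were called lower. Mfap5 and Tnn, counted here, were dark in every triploid clone and could only fall. Of 14 fibrillar and basement membrane collagens 0 were called by limma (2 at an unadjusted p below 0.05) and the median was 0.04. Per clone, the collagen median was -0.86 in triploid clone 1 and above 0 in the others.

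Mfap5, a glycoprotein of elastin-associated microfibrils, had log2 signals of 4.11, 4.98 and 4.31 in the diploid clones and -4.17, -5.89 and -5.30 in the triploid clones. It was dark in each of these and at least 355-fold lower (-9.59 ± 0.82, adjusted p = 0.00135). Fbln5, which links elastic fibres to cells, fell from 5.42, 5.69 and 5.09 to 2.77, 2.38 and 2.99 (-2.69 ± 0.28, adjusted p = 0.00381), with little spread within either group. Smoc2, a matricellular protein that binds calcium, fell from 5.45, 4.21 and 5.98 to -0.20, -3.43 and -2.19 (-7.15 ± 0.74, adjusted p = 0.00381); triploid clone 1 kept the most signal. These 3 genes were called whichever clone was left out.

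Among the other matricellular genes, Thbs1 fell by 1.91 ± 0.31, Ccn5 fell by 4.15 ± 0.77, Ccn3 fell by 4.07 ± 0.73, Omd fell by 2.38 ± 0.37 and tenascin N (Tnn) was at least 5.10-fold lower. The triploid values of Thbs1 lay close together at 4.77, 4.86 and 4.75, against 6.91, 5.96 and 7.22 in the diploid clones. Those of Ccn5 were spread, at 2.15, -0.81 and -0.22 against 4.23, 4.83 and 4.52. All 5 calls were lost without diploid clone 1, diploid clone 3 or triploid clone 2, and some also without diploid clone 2, triploid clone 3 or tetraploid clone 1 (adjusted p from 0.0504 to 0.134). Ccn2, a matricellular relative of Ccn5, had 7.71, 7.49 and 8.22 against 3.61, 6.58 and 6.78 and was not called (adjusted p = 0.153).

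Matrix proteases and their inhibitors went both ways. Of 21 measured, 2 rose (the stromelysin Mmp10 and the inhibitor Slpi) and 1 fell, with a median of 0.53. Over all features 0.633% were called higher and 1.39% lower. Mmp10 was dark in the diploid clones and had -1.05, -0.64 and -1.75 in the triploid clones, at least 7.22-fold higher (adjusted p = 0.0107). It was thus kept through the triploid arrays alone and could only rise. The fibronectin receptor subunit Itga5 fell by 1.54 ± 0.21 and Itga8 was at least 10.5-fold lower, 2 of 12 integrins measured, against 1.39% of all features called lower. Itga8 was dark in every triploid clone and could only fall. Cspg4, the proteoglycan NG2 of pericytes, fell from 2.06, 2.37 and 2.34 to -2.83, -3.87 and -3.46 (-5.64 ± 0.34, adjusted p = 0.000181, called whichever clone was left out). Mmp10 lost its call without triploid clone 2 (adjusted p = 0.051), Itga5 without diploid clone 1 or 3 or triploid clone 2 (0.0526, 0.0552 and 0.0609), and Itga8 without any 1 diploid clone, triploid clone 2 or 3 or tetraploid clone 1 (from 0.0676 to 0.164).

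A few secreted regulators of Wnt and activin signalling fell. Of 21 Wnt pathway genes measured 2 fell and 0 rose, with a median of -0.68; of 28 TGF-beta and BMP genes 2 fell and 0 rose, with a median of -0.02. These counts, and those of the growth factor and guidance lists that follow, stand against 1.39% of all features called lower. Dkk2, a Wnt antagonist, went from 1.57, 0.88 and 2.34 to -3.20, -6.22 and -4.51 (-6.24 ± 0.72, adjusted p = 0.00683), with 1 triploid clone above background, and was called whichever clone was left out. Rspo2, which amplifies Wnt signalling and is needed for limb outgrowth, went from 4.39, 3.57 and 5.34 to 1.04, -6.12 and -4.26 (-7.55 ± 1.46, adjusted p = 0.0428); triploid clone 1 kept a clear signal.

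Inhba, which encodes a subunit of activins, fell from 4.83, 5.11 and 5.32 to 2.34, 3.73 and 3.36 (-1.94 ± 0.40, adjusted p = 0.0474). Pdgfd, a platelet-derived growth factor, was the 1 gene called of 25 in the list of FGF, IGF, VEGF and related genes and fell by 4.55 ± 0.77. Of 30 guidance genes 2 fell, the ephrin receptor Epha3 (at least 5.05-fold) and the plexin Plxna2 (fell by 2.70 ± 0.53). Epha3 was dark in every triploid clone and could only fall. Lrrc32, which holds latent TGF-beta on the cell surface, fell from 4.45, 3.71 and 5.38 to -0.91, -3.47 and -2.45 (-6.79 ± 0.82, adjusted p = 0.00719, called whichever clone was left out). Without any 1 of the diploid clones, triploid clone 2 or triploid clone 3, the calls of Rspo2, Inhba, Epha3 and Plxna2 were lost, and without the same clones except diploid clone 2 that of Pdgfd (adjusted p from 0.0798 to 0.15). Those of Rspo2 and Inhba were also lost without any 1 tetraploid clone (from 0.0506 to 0.0695), and those of Epha3 and Plxna2 without tetraploid clone 1 (0.0732 for both).

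Several acute-phase and alarmin genes rose in the triploid clones. Of 14 measured members of that list 5 rose and 0 fell, against 0.633% of all features, with a median of 2.23. Of the 14, 9 were higher in all triploid clones than in any diploid clone, against 16.3% of all features. Saa3 and Il33 were dark in every diploid clone, so they were kept through the triploid arrays alone and could only rise. The 5 were Saa3, Hp, Cp, Il33 and Slpi. Cebpb, a C/EBP transcription factor induced in inflammation, rose with them.

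Before the values, the promoter windows of 4 of these genes are shown because each holds a C/EBP core. The windows run from 250 bases before to 50 bases after the annotated start and come from RefSeq with the build GRCm38.p6: chr7:46715627-46715926 (minus strand) for Saa3, chr3:19956999-19957298 (plus strand) for Cp, chr19:29945540-29945839 (plus strand) for Il33 and chr2:164356458-164356757 (minus strand) for Slpi. Capitals mark the match to TTGCNNAA on either strand.
Saa3: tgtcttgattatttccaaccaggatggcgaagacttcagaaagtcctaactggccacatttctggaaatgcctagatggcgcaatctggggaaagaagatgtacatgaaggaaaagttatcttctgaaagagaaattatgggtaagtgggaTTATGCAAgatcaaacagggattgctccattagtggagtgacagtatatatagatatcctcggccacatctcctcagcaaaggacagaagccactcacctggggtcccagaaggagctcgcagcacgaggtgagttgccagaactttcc
Cp: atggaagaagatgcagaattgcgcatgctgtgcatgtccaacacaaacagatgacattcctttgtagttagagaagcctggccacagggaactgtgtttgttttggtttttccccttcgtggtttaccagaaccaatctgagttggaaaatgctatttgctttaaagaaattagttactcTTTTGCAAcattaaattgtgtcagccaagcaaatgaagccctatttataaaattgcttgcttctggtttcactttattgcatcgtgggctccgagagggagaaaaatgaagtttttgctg
Il33: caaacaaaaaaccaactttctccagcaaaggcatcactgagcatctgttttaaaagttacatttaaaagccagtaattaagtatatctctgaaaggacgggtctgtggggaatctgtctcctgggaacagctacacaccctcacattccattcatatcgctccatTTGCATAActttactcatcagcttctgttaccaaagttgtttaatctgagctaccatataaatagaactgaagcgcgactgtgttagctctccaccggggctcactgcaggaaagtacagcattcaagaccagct
Slpi: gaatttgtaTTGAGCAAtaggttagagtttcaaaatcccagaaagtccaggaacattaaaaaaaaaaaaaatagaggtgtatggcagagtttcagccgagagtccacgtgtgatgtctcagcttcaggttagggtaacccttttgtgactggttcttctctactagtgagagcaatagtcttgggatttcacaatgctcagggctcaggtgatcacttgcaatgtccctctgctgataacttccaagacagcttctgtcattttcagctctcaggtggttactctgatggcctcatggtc
The matches lie 99 to 92 bases before the start in Saa3, 70 to 63 in Cp, 85 to 78 in Il33 and 241 to 234 in Slpi, and they overlap no match of the other motifs searched on both strands (NF-kB, STAT, AP-1, TATA box, TEAD, E-box and CArG box). Cp and Il33 have a further start in the table, whose window held no match to this motif. For comparison, 10.8% of all 32851 windows held the motif, as did at least 1 window of 10.1% of the 9845 tested genes with an entry. The same held for 14 of 68 genes that rose (20.6%) and 19 of 149 genes that fell (12.8%). The 4 genes shown are among those 14, so the share of genes that rose is no independent comparison for them. The NF-kB motif (1.47% of windows) and the STAT motif TTCCNGGAA (1.15%) were found in 0 of the 4 genes, as was the CArG box. The TATA box and the TEAD motif were found in 2 of them each, and the AP-1 motif and the E-box in 1 each. Among the genes that rose the STAT motif was in 3 of 68 (4.41%), against 1.57% of the tested genes. The TATA box was in 18.8% of the genes that fell and 13.2% of those that rose, against 9.6% of the tested genes. A match describes these letters and not a bound site, and Hp has no window here.

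Saa3, an inducible serum amyloid, had -5.84, -5.73 and -6.25 in diploid clones 1 to 3, all dark, and -1.15, -0.83 and -2.56 in triploid clones 1 to 3. It was at least 5.60-fold higher (4.43 ± 0.45, adjusted p = 0.00373). Hp, the haemoglobin scavenger haptoglobin, went from -3.65, -3.05 and -3.47 to 1.87, 3.49 and 0.88, above background on all 6 arrays (5.47 ± 0.69, adjusted p = 0.00865). Il33, a nuclear alarmin released by damaged cells, was dark in the diploid clones and had -0.82, 1.30 and 0.89 in the triploid ones, at least 22-fold higher (adjusted p = 0.00381). No diploid clone came within the triploid range at any of the 3, as at all 434 called features. All 3 were called whichever clone was left out.

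Cp, the copper-carrying ferroxidase ceruloplasmin, and Slpi, an inhibitor of leukocyte proteases, rose from widely spread diploid values. Cp had -2.73, -0.29 and -6.30 in the diploid clones, the last of them dark, and 3.27, 3.46 and 2.15 in the triploid clones (6.06 ± 1.20, adjusted p = 0.0443). Slpi had -3.36, 0.27 and -5.33 against 4.34, 3.88 and 3.16 (6.60 ± 1.32, adjusted p = 0.0447). Diploid clone 2 was the highest diploid clone for both genes, and lay below every triploid clone, as the diploid clones did at every feature called higher. Both calls were lost without diploid clone 1, triploid clone 2 or 3 or tetraploid clone 1 or 3, that of Slpi also without diploid clone 3 and that of Cp without tetraploid clone 2 (adjusted p from 0.0504 to 0.148). Cebpb went from 3.47, 3.54 and 3.57 to 4.48, 5.09 and 5.07 (1.35 ± 0.23, adjusted p = 0.0297), a tight rise that was not called without any 1 diploid clone, triploid clone 2 or 3 or tetraploid clone 1 (from 0.0597 to 0.118). Its relative Cebpd had a difference of 1.01 and was not called (adjusted p = 0.122), with all triploid values (6.33, 5.58 and 5.23) above the diploid ones (4.63, 4.86 and 4.61).

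Single chemokine, antigen presentation and cytokine pathway genes rose too. Of 12 chemokines 2 rose and 0 fell, with a median of 0.78, against 0.633% of all features called higher. Cxcl12, the ligand of Cxcr4 made by stromal cells, rose from 4.89, 5.77 and 3.32 to 7.89, 7.95 and 8.14 (3.34 ± 0.57, adjusted p = 0.029). Cxcl1, which attracts neutrophils, rose from 1.40, 1.41 and 1.77 to 4.81, 4.42 and 2.71 (2.46 ± 0.49, adjusted p = 0.0446). Of 14 antigen presentation genes, Tapbp (tapasin, 1.53 ± 0.28) and the class Ib gene H2-M3 (3.14 ± 0.61) rose, while B2m, the light chain of class I molecules, had 6.43, 6.28 and 6.47 against 6.12, 6.20 and 6.05 and was not called. Of 17 interferon pathway genes Irf1 alone rose (1.32 ± 0.22), with a list median of 0.33, and the interferon-induced Ifit3 had a difference of -1.56. Of 27 NF-kB and STAT3 pathway genes Cebpb and the receptor gene Lifr (2.09 ± 0.36) rose, with a median of 0.51. Cxcl12, Cxcl1, Tapbp, H2-M3, Irf1 and Lifr each lost their call without diploid clone 3 or triploid clone 2. All but Cxcl1 also lost it without triploid clone 3, all but Lifr without diploid clone 1, and some without diploid clone 2 or a tetraploid clone (adjusted p from 0.0505 to 0.156).

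Other genes with large rises belonged to no list. Plscr2, a phospholipid scramblase, rose from -1.56, -0.70 and -2.27 to 1.50, 3.34 and 2.95 (4.11 ± 0.58, adjusted p = 0.0138), and Isyna1, the enzyme that makes inositol phosphate from glucose 6-phosphate, from 1.64, 1.27 and -1.15 to 3.16, 5.38 and 5.12 (3.97 ± 0.81, adjusted p = 0.0464). Triploid clone 1 was the lowest triploid clone at both, as it was at Cxadr, a junctional virus receptor (0.84 against 3.67 and 3.22), at the scaffold gene Slc9a3r1 (2.01 against 4.30 and 4.09) and at the poly(A) polymerase gene Tent5c (-0.75 against 1.52 and 0.52). Mtfp1, which promotes mitochondrial fission, rose more evenly, from -0.38, -0.18 and -0.08 to 2.81, 3.49 and 2.77 (3.23 ± 0.41, adjusted p = 0.00882, called whichever clone was left out). Syngr1, a vesicle membrane protein, rose by 2.21 ± 0.26 with triploid values of 0.61, 0.44 and 0.54, and was called whichever clone was left out too. The calls of Plscr2, Isyna1, Cxadr, Slc9a3r1 and Tent5c were lost without diploid clone 1, diploid clone 3, triploid clone 2 or triploid clone 3, and in part without diploid clone 2 or tetraploid clone 1 or 3 (adjusted p from 0.051 to 0.161).

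Genes of DNA replication were slightly higher on the median, and no single one was called. Of 45 measured members 0 were called by limma (20 at an unadjusted p below 0.05), 44 had differences above 0, 27 were higher in every triploid clone than in any diploid clone, and the median was 0.58 against 0.068 for all features. Mcm5, a subunit of the replicative helicase, had 4.49, 4.01 and 3.64 against 5.08, 5.69 and 5.92 (1.51 ± 0.44, adjusted p = 0.109). Cdt1, which loads that helicase, had 3.90, 3.62 and 3.80 against 4.58, 5.10 and 5.33 (adjusted p = 0.13). The groups did not overlap at either gene, and 16.3% of all features showed that order.

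Cohesin and condensin genes had a median of 0.63 over 25 members, 14 of them higher without overlap. Over all features 16.3% were higher without overlap, 0.633% were called higher and 1.39% were called lower. Cdca5 (sororin), which protects cohesion between sister chromatids, was the 1 called: it rose from 3.59, 3.39 and 3.41 to 4.44, 4.58 and 4.53 (1.06 ± 0.21, adjusted p = 0.0458), and lost its call without any 1 diploid clone, triploid clone 2 or 3 or tetraploid clone 1 (from 0.082 to 0.164). Spindle checkpoint genes (31, median 0.35), centrosome genes (26, median 0.15) and cytokinesis genes (23, median 0.33) had 0 called by limma, and 8, 3 and 9 of them reached an unadjusted p below 0.05. Of all 21477 features, 4458 reached it. Plk4, the kinase that licenses centriole duplication, had -0.44, -0.80 and -0.93 against -0.06, 0.37 and 0.28 (adjusted p = 0.133), and the spindle motor Kif11 had 0.70, 0.11 and -0.27 against 1.08, 1.67 and 1.71 (adjusted p = 0.0632). Among 28 cyclins, kinases and retinoblastoma family genes, the repressor E2f6 fell by 1.36 ± 0.28 and the E2F partner Tfdp2 rose by 1.30 ± 0.23, and both calls were lost without any 1 diploid clone, triploid clone 2 or 3 or tetraploid clone 1, that of E2f6 also without tetraploid clone 2 (adjusted p from 0.0556 to 0.175).

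Death and repair genes moved singly. Of 24 BCL2 family and caspase genes 3 rose and 0 fell, with a median of 0.27, against 0.633% of all features called higher. Bmf, a BH3-only killer protein, rose from -2.73, -2.97 and -2.68 to -0.92, -0.22 and -0.57 (2.22 ± 0.26, adjusted p = 0.00719, called whichever clone was left out). Bcl2l11 (Bim), of the same class, rose by 1.86 ± 0.33. The p53 targets of the same class, Bbc3 and Pmaip1, had differences of -0.32 and -3.86 and were not called. Of 28 p53 target genes Ddb2 alone rose (1.29 ± 0.26, adjusted p = 0.0464), with a median of -0.08, and Cdkn1a (p21) had a difference of -1.17 (adjusted p = 0.29).

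Of 45 DNA repair genes 2 rose, Ddb2 among them, and 1 fell, against 0.633% of all features called higher and 1.39% called lower. Ercc1, a nuclease subunit of excision repair, was the one that fell, from 3.99, 3.71 and 4.31 to 2.48, 1.84 and 1.97 (-1.91 ± 0.25, adjusted p = 0.0107). Ercc1 lost its call only without triploid clone 2 or 3 (0.0538 and 0.0517) among the 9 fits that left out 1 clone. The calls of Bcl2l11 and Ddb2 were lost without any 1 diploid clone, triploid clone 2 or 3 or tetraploid clone 1, and that of Ddb2 also without tetraploid clone 2 or 3 (adjusted p from 0.0504 to 0.17).

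Genes of protein synthesis and turnover also had medians above that of all features. Over all features 16.3% were higher without overlap, and 1.39% were called lower. All 30 ribosome biogenesis factors had differences above 0 (median 0.55, 19 higher without overlap), and 0 were called by limma (8 at an unadjusted p below 0.05). Nop56, a core protein of box C/D ribonucleoproteins, had 6.47, 6.67 and 6.57 against 7.62, 7.63 and 7.75, a difference of 1.10 ± 0.41 with almost no spread within either group (adjusted p = 0.177). The model's SE also holds the spread of the tetraploid clones. Proteasome subunits had a median of 0.45 over 31 members, 18 of them higher without overlap. Psmd8, a lid subunit, was the exception and fell from 5.18, 5.88 and 5.68 to 4.41, 4.37 and 4.28 (-1.23 ± 0.23, adjusted p = 0.0367); its call was lost without diploid clone 2 or 3, triploid clone 2 or 3 or tetraploid clone 1 (from 0.0695 to 0.136). Chaperones and unfolded protein response genes had a median of 0.36 over 38 members with 0 called by limma (10 at an unadjusted p below 0.05).

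**Figure D3:**
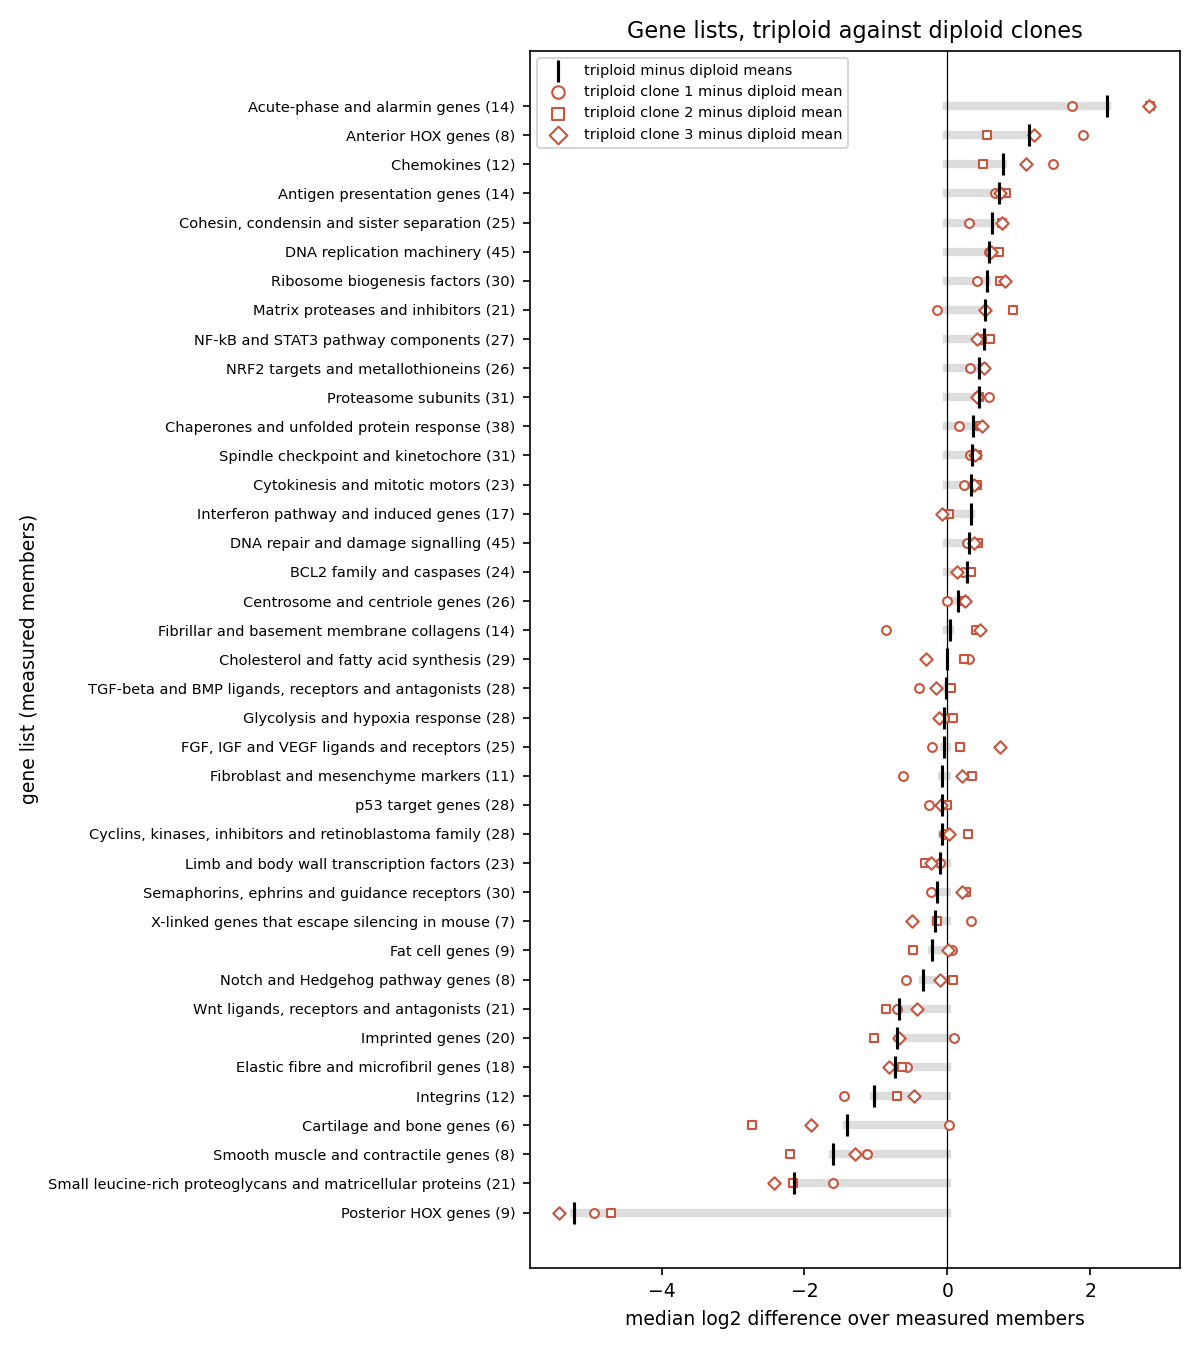
Median log2 difference over the measured members of each gene list with at least 5 of them (horizontal axis), 1 row per list with the number measured in brackets; the black tick and grey bar give triploid minus diploid means, and open symbols give each triploid clone minus the diploid mean. Acute-phase genes (median 2.23) and posterior HOX genes (-5.22, or -3.96 with dark genes at their bounds) lie at the 2 ends, and the lists of replication and ribosome biogenesis genes lie above 0 in all 3 clones. Both end lists hold genes dark in 1 group, which were kept through the other group alone and widen these medians.

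Metabolic lists held few calls. Over all features 0.633% were called higher and 1.39% lower. Glycolysis and hypoxia genes (28, median -0.04) and cholesterol and fatty acid synthesis genes (29, median -0.01) had 0 called by limma, and 5 and 3 of them reached an unadjusted p below 0.05. Adm, the hypoxia-induced peptide adrenomedullin, had 5.04, 5.02 and 5.41 against 2.61, -4.41 and -2.39, lower in all triploid clones but not called (adjusted p = 0.0631). Of 26 NRF2 targets and metallothioneins Mt2 alone rose, from 4.24, 3.87 and 4.09 to 6.63, 6.55 and 5.62 (2.20 ± 0.44, adjusted p = 0.0446), lost without any 1 diploid clone, triploid clone 2 or 3 or tetraploid clone 2 (from 0.0513 to 0.156).

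The dioxin receptor and its repressor moved in opposite directions. Ahrr, which represses the aryl hydrocarbon receptor and is itself induced by it, fell from 1.37, -0.25 and 0.93 to dark levels of -5.14, -5.95 and -6.11, at least 25.8-fold (-6.42 ± 0.47, adjusted p = 0.000521, called whichever clone was left out). Ahr, the receptor gene, which was picked after its values were seen, rose from 0.43, -0.01 and 0.06 to 1.54, 3.11 and 2.79 (2.32 ± 0.41, adjusted p = 0.0328). The call of Ahr was lost without any 1 diploid clone, triploid clone 2 or 3 or tetraploid clone 1 (from 0.0565 to 0.12).

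Single markers of differentiated cell types that the diploid clones expressed fell in the triploid clones. Krt19, a keratin of simple epithelia, fell from 4.69, 3.26 and 4.80 to -1.24, 0.23 and -1.57 (-5.11 ± 0.54, adjusted p = 0.00381, called whichever clone was left out), although Cdh1 and Epcam were dark throughout. Cnn1 (calponin), a smooth muscle actin-binding protein, fell from 7.66, 7.31 and 6.05 to 4.91, 3.07 and 4.64 (-2.80 ± 0.54, adjusted p = 0.0428). Of 8 contractile genes measured it alone was called, against 1.39% of all features called lower, while 6 were lower without overlap (11.5% of all features). The median over the 8 was -1.60. Des, Lmod1, Myh11, Mylk, Myocd and Synpo2 of that list were not kept. Tagln, an early smooth muscle gene, had 9.59, 10.00 and 10.29 against 9.22, 8.33 and 8.85 (adjusted p = 0.092).

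Fabp4, a fatty acid carrier of fat cells and endothelium, fell from 4.53, 3.24 and 6.65 to 0.61, -1.90 and -0.42 (-5.38 ± 0.83, adjusted p = 0.0213). Of 9 fat cell genes measured it alone fell and Cebpb rose, 4 had differences above 0, and the median was -0.22. Col10a1, the collagen of hypertrophic cartilage, fell by 4.48 ± 0.85 with 1 triploid clone above background. It was the 1 called of 6 cartilage and bone genes, with a median of -1.41. Over all features 0.633% were called higher and 1.39% lower. Thy1, a surface protein of fibroblasts, had 6.21, 7.42 and 2.34 against -2.24, -2.89 and -5.12, a difference of -8.74 ± 1.94 that was not called (adjusted p = 0.0559). Dcn (decorin) had 1.16, 3.21 and -1.92 against 1.96, 7.03 and 5.77, and so overlapped. On the 12 fibroblast markers together, 0 were called by limma of 11 measured (8 at an unadjusted p below 0.05), and the log2 of their summed signal ran from 10.09 to 10.40 in the diploid clones and from 9.33 to 10.45 in the triploid clones. The calls of Cnn1, Fabp4 and Col10a1 were each lost without diploid clone 1, triploid clone 2 or triploid clone 3, and in part without other clones (adjusted p from 0.0508 to 0.14).

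Other large drops belonged to no list. Cracd, a regulator of actin capping, had 0.12, -0.32 and -0.15 in the diploid clones and was dark in all triploid clones, at least 14.8-fold lower (-5.99 ± 0.21, adjusted p = 5.81e-06, the smallest among named genes that fell). Cav3, the muscle caveolin, was at least 23.2-fold lower, Ccdc68, a centriolar appendage protein, at least 74.1-fold and the adhesion receptor Adgrg5 at least 4.64-fold. Ttll11, a tubulin polyglutamylase, fell from 1.52, 0.57 and 3.19 to -3.38, -6.16 and -5.57. These 5 genes were called whichever clone was left out. Coch (cochlin) was at least 78.3-fold lower, and the water channel Aqp1 went from 5.70, 3.61 and 5.74 to 1.21, -5.42 and -1.55. At Aqp1, triploid clone 1 kept the most and clone 2 the least signal. The calls of Coch and Aqp1 were lost without diploid clone 1, diploid clone 3 or triploid clone 2, and that of Aqp1 also without diploid clone 2, triploid clone 3 or any 1 tetraploid clone (adjusted p from 0.0518 to 0.141).

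The Y-linked genes measured, 2 in number, were dark in all triploid clones, while of 7 X-linked genes that escape silencing 0 were called by limma (1 at an unadjusted p below 0.05), with a median of -0.17. Eif2s3y, a Y-linked translation factor, had 2.05, 1.68 and 3.33 in the diploid clones and was dark in the triploid clones at -5.96, -6.32 and -6.13, at least 82-fold lower. Ddx3y, a Y-linked helicase, was bright in the same clones (1.11, 0.43 and 1.58) and at least 33-fold lower in the triploid ones. Both genes were kept through the diploid arrays alone and could only fall. Neither was called in the fit of 9 arrays (adjusted p = 0.0797 and 0.0952), and both were called on the 6 arrays alone (0.00041 and 0.000343). Tetraploid clones 1 and 2 were bright at both genes and tetraploid clone 3 was dark. Xist, the RNA that coats the silent X, was above background in 2 of 3 diploid and 2 of 3 triploid clones; at its brighter probe the values were -1.22, -0.23 and -6.49 against -0.99, -1.58 and -6.09. No probe of Kdm5d or Uty was kept, and Kdm5d was dark on all 6 arrays. Over these 6 clones the signal of Eif2s3y and Ddx3y followed ploidy, so the 2 cannot be told apart here. Xist, which the filter did not keep, had overlapping values in the groups.

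Genes on several chromosomes were shifted together. The test used 1 median per clone and chromosome over its named genes, and called 7 of 20 chromosomes: 7 lower, and 2, 5, 6, 8, 17 and 19 higher. Without diploid clone 1 or 2 or triploid clone 3 that count was 0, and without triploid clone 2 it was 1. It was also 0 with arrays centred on their median, with no filter on dim probes and with the slide as a block. Because these medians share the shift of all genes, each clone was also centred on its median over all named genes, an alternative chosen after the data were seen, which called 9 chromosomes.

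Chromosome 7 was lower by 0.41 ± 0.08 on that scale (974 genes, adjusted p = 0.00304). The triploid clones 1 to 3 stood at -0.23, -0.53 and -0.47, whereas the diploid clones lay at -0.01, 0.04 and -0.02. Tetraploid clones 1 to 3 also lay below the diploid clones, at -0.22, -0.33 and -0.19. The shift was similar along the chromosome: over 4 segments of equal gene number, in order, triploid clone 2 had -0.53, -0.58, -0.53 and -0.47 and triploid clone 3 had -0.44, -0.54, -0.44 and -0.40. In all, 78.6% of the genes lay below the median difference of all named genes. Of its named genes 40 fell and 1 rose (Saa3), so 4.11% were called lower, against 1.39% of all features and 197 of the 12293 named genes. On chromosome 6, whose median was called higher, 20 of 599 named genes were called lower too. The median over these 40 was -1.69, a value for genes picked by their drop and not for the chromosome. Psmd8 and Ercc1 are among the 40. The call held in each fit that left out 1 clone (adjusted p from 1.18e-06 to 0.0198).

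Chromosome 12 was lower by 0.37 ± 0.10 (409 genes, adjusted p = 0.0196), and here triploid clone 1 was lowest: the clones stood at -0.66, -0.29 and -0.15. Clone 1 had -0.72, -0.73, -0.62 and -0.69 over the 4 segments, again similar along the chromosome, and clone 3 never went below -0.14. This call was lost without diploid clone 1 or 2 (adjusted p = 0.0782 and 0.068). Chromosome 10 was lower by 0.21 ± 0.06, chromosome 17 higher by 0.20 ± 0.06 and chromosome 19 higher by 0.24 ± 0.06. These 3 calls were lost without diploid clone 1 or 2 or triploid clone 3, and that of chromosome 10 without diploid clone 3 (adjusted p from 0.06 to 0.116).

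On the X chromosome (400 genes) the triploid clones disagreed. Clone 1 stood at 0.13, clone 2 at -0.59 and clone 3 at -0.37, and the difference was not called (-0.28 ± 0.13, adjusted p = 0.09); without clone 1 it was (-0.48 ± 0.06, adjusted p = 2.55e-06). The shift was also uneven along the chromosome. In the first of its 4 segments clone 2 stood at 0.25 and clone 3 at -0.31, in the second clone 2 fell to -0.96 while clone 3 was at -0.13, and in the last 2 segments both lay between -0.54 and -0.62. The diploid clones stayed between -0.06 and 0.12 in all 4 segments. Of the X-linked genes, 15 fell (3.75%, against 1.39% of all features and 197 of the 12293 named genes) and 0 rose. Over these 15, the median difference from the diploid mean was -3.03, -3.09 and -2.90 in triploid clones 1 to 3. These genes were picked for being lower in the triploid group, so the likeness of the 3 clones at them was set by the choice.

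**Figure D4:**
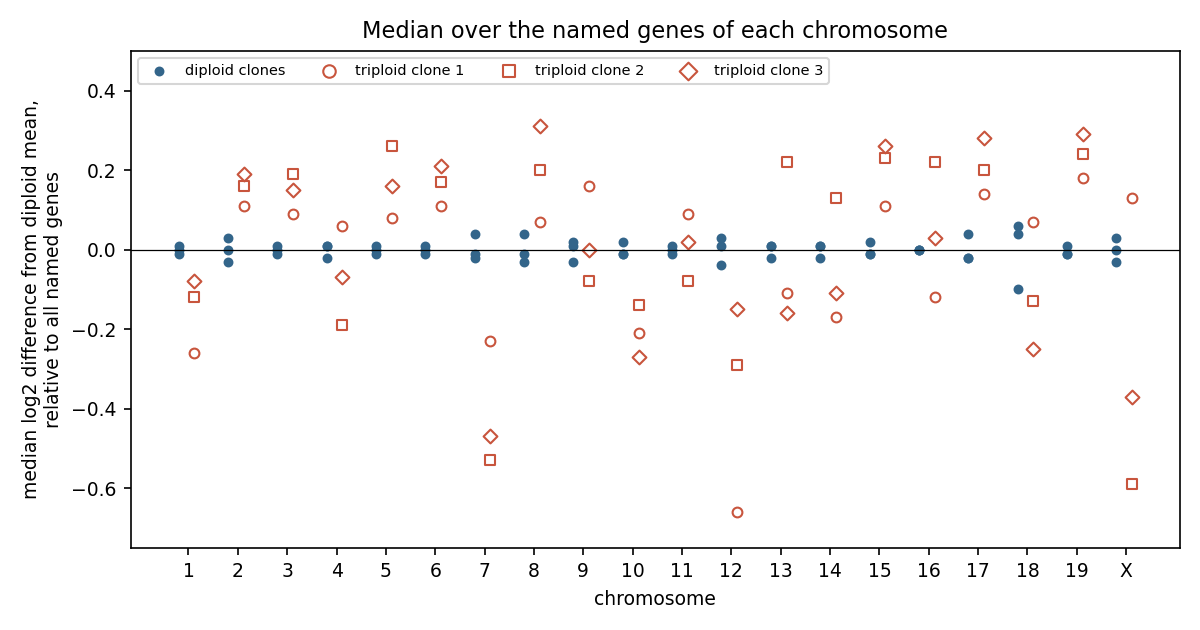
Median log2 difference from the diploid mean by chromosome over its named genes, with every clone set to a median of 0 across all named genes (vertical axis), for 20 chromosomes (horizontal axis); dots are diploid clones and open symbols the 3 triploid clones. Chromosome 7 is lowest in triploid clones 2 and 3 apart from X in clone 2, chromosome 12 is lowest in clone 1, and the diploid clones stay within 0.1 of 0.

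Triploid clone 1 stood apart from the other triploid clones. At 2143 features (9.98%) it lay more than 2-fold outside the range of both, compared with 646 for clone 2 and 441 for clone 3 in the same count, and with 596, 745 and 1194 for diploid clones 1 to 3. The 10 genes with the widest gap, given as values without a test, split into 2 sets. In the first, clone 1 was like the diploid clones and the other triploid clones were dark: Cxcl5, a neutrophil chemokine, had 4.53, -6.12 and -5.94 in triploid clones 1 to 3 and 4.41, 2.68 and 5.08 in the diploid clones, and Il1rl1, the receptor for Il33, had 5.23, -5.60 and -4.20 against 6.54, 5.24 and 7.18. Fgf7, a growth factor from mesenchyme to epithelium, had 5.17, -4.80 and -5.25 against 2.95, 4.23 and 4.10, and Dkk3, Lrrc17, B3galnt1 and the patterning factor Irx1 followed that order.

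In the second set clone 1 was the low one. Aldh1a1, which makes retinoic acid, had -2.37, 6.69 and 6.78 in the triploid clones and 1.17, -0.63 and -1.04 in the diploid clones. Ptgis, prostacyclin synthase, had -4.19, 6.89 and 6.23, and Ankrd1, a target of mechanical signalling, had -5.51, 4.50 and 5.23. The diploid clones were spread at both, from -3.57 to 3.43 and from -0.31 to 3.68. Markers of mesothelium, the lining of body cavities, had the same order: Wt1 had -5.92, 5.59 and 5.13 in triploid clones 1 to 3, Upk3b had -5.82, 4.61 and 3.42, Lrrn4 had -5.71, 3.63 and 2.13 and Msln had 1.74, 5.00 and 4.79. The log2 of the summed signal of these 4 genes was 1.76, 6.87 and 6.28 in the triploid clones and 3.80, 1.44 and 1.65 in the diploid clones. Clones 2 and 3 thus lay above every diploid clone and clone 1 within the diploid range; the part of these markers' cells in other differences was not tested. Over the 434 called features, triploid clone 1 was the nearest of the 3 to the diploid mean at 268.

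**Figure D5:**
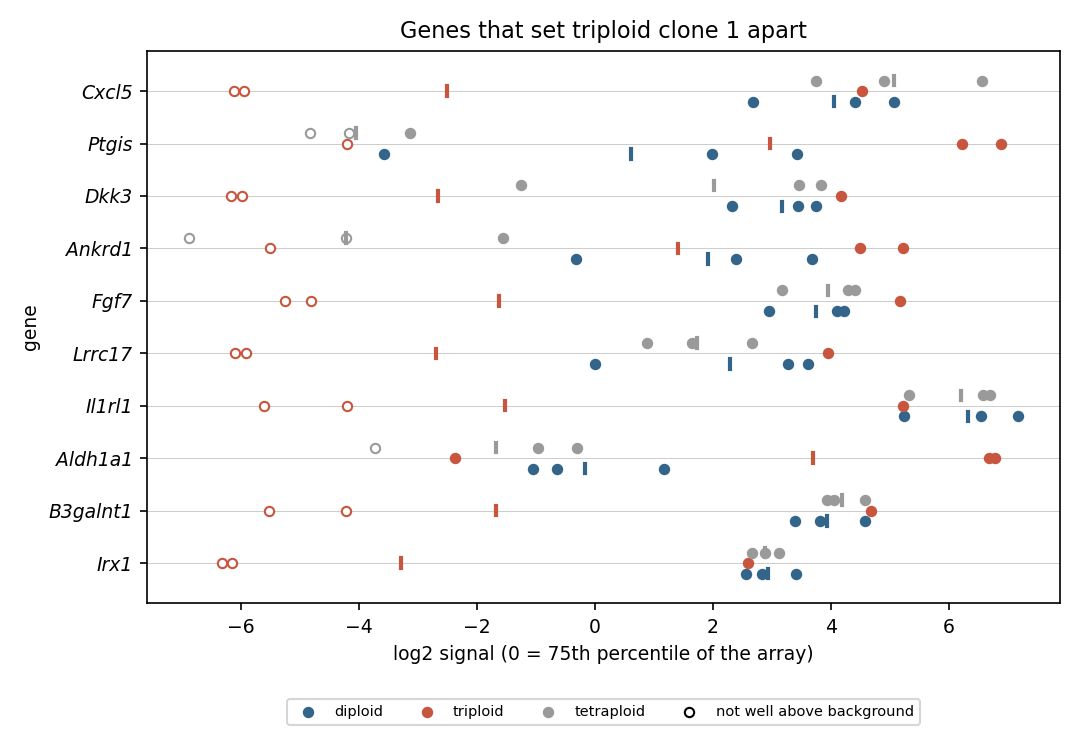
Log2 signal of each clone (horizontal axis) for the 10 named genes that set triploid clone 1 farthest from triploid clones 2 and 3; vertical ticks are group means of 3 clones and open circles were not well above background. At 7 genes clone 1 is the bright triploid clone within or near the diploid range, and at Ptgis, Ankrd1 and Aldh1a1 it is the low one.

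Of the probes without a gene name, 49 rose and 101 fell. Of the 5 largest drops among them, 2 probes were designed on the same interval of the mm9 build, chr13:15947521-15999246 on the plus strand. They had diploid values of 0.52, 0.93 and 0.57 and of -0.49, 0.03 and -0.50, were dark in all triploid clones and were at least 25.7-fold and 12.9-fold lower (adjusted p = 0.00135 and 0.00345, both called whichever clone was left out). The probe A_52_P479262, with no interval in its name, was at least 215-fold lower, from 3.55, 4.12 and 3.65 to -3.83, -4.13 and -4.60 (adjusted p = 2.83e-05). Among the rises, a probe designed on chr1:92412246-92423471, plus strand, went from -5.35, -3.10 and -5.71 to -0.90, -0.30 and -0.55 (4.13 ± 0.61, adjusted p = 0.0173); its call was lost without diploid clone 1 or 3 or triploid clone 2 or 3 (from 0.0589 to 0.0706).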

How the data were processed

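RNA of 9 clones, 6 of which are compared here, was labelled with Cy3 and hybridised to 1 Agilent mouse array each. Per the file headers, the authors read the arrays with Agilent Feature Extraction 10.7.3.1, and the design was drawn on the genome build mm9. The deposited scanner files hold processed signals in intensity units, not normalized between arrays. The authors' deposited table of log2 values differs from these signals in log2 by a constant for each array and each probe's value in diploid clone 1, within 0.01 at 100% of probes, and served as an alternative.

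Each array's processed signal was divided by its 75th percentile over the 59305 spots that are not controls and turned to log2. Spots of a probe were averaged, and 83 of 55681 probes were dropped because all their spots were marked as outliers on an array. Symbols came through the accessions of the design and a RefSeq table of GRCm38.p6, for 26413 probes; 29268 had none. The brightest kept probe stood for a gene, and unnamed probes were features of their own. Of 56 called genes with several kept probes, 55 had all probes of the same sign. Models used limma 3.58.1 (lmFit, eBayes) in R 4.3.3 on all 9 arrays, with 1 mean per group and a shared estimate of the spread, with Benjamini-Hochberg adjustment over all 21477 features, and were tested on simulated data. Chromosomes with at least 20 named genes were tested by their median per array. Errors are SE of the model. Arrays give no counts, and the number of clones limits the precision.

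The members, gene lists, motifs and tests were chosen with earlier results of these data known. Named genes are, per direction, the 15 largest called differences without overlap, the 5 smallest adjusted p beside them and up to 5 unnamed probes, plus called members of 49 lists, the 2 largest of a list with none, fixed sex-linked genes and Trp53, and 10 genes setting triploid clone 1 apart. Further genes given by value, among them list members that were not called, were picked for context with their values seen. The alternatives were other centrings and normalizations, filters, a floor, probe averages, blocks, prior settings, the deposited table and leaving out each clone. Results of some genes that the naming rule picks are not reported here.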

Additional observations from a re-analysis of the deposited data

How the results depend on the processing

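Of the 434 calls, 169 were shared by the fit of the 6 arrays and 84 by the fit with the slide as a block. The counts of features called, higher and lower were 209, 47 and 162 with the 6 arrays alone. They were 265, 71 and 194 with centring on the median, 103, 21 and 82 with no filter on dim probes, 189, 69 and 120 with probes above background on all 6 arrays, and 88, 18 and 70 with the slide as a block. Leaving out 1 clone at a time gave from 66 to 1411 features called, from 9 to 487 higher and from 57 to 924 lower. The lowest counts were without triploid clone 2 and the highest without triploid clone 1. The replicate block gave 274, 61 and 213; the numbers do not pair the clones, since the deviations of same-numbered diploid and triploid clones from their group means correlated at -0.14, -0.024 and -0.079 and no clone correlated best with its own number. Under the other alternatives (centring on probes detected on all 6 arrays, quantile normalization, normexp, the floor, probe averages, trend, robust prior and the deposited table) the counts stayed within 1.5 times. The count of chromosomes whose median differed was 7; it was 0 with centring on the median, with no filter and with the slide as a block, 11 with quantile normalization, 8 with the replicate block, from 0 to 10 with 1 clone left out, and 9 with each array centred on its median over all named genes, the alternative added after the data were seen. None of the 93 called features chosen by the naming rule changed direction under an alternative it was run in (49 of them with probes above background on all 6 arrays, 93 in each of the others); 25 of them lost their call with centring on the median, 51 with no filter, 56 with the slide as a block and 23 with the replicate block. The median of all features ran from -0.032 to 0.116 over the settings, so a difference of that size has no settled sign. Why these counts move was not tested. With 3 clones a group and signals at background for many genes, small differences and the size of the largest drops are not resolved.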
